A study of Homo sapiens with 12 samples.

Results

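The replication-dependent histone genes are the genes for the linker histone H1 and the core histones H2A, H2B, H3 and H4 that cells use to package newly copied DNA. They were taken as the protein-coding genes with the symbols H1-1 to H1-6 or a symbol starting with H2AC, H2BC, H3C or H4C and a digit, which gave 70 genes in the GENCODE v44 annotation of GRCh38. The deposited table held the gene ID of 66 of them, out of 60675 IDs in all. These were 6 H1, 15 H2A, 19 H2B, 11 H3 and 15 H4 genes, and H2AC18, H2AC19, H3C2 and H3C3 were not analysed here. Of the 70 genes, 55 lie on chromosome 6, 13 on chromosome 1, 1 on chromosome 12 and 1 on chromosome 21.

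RNA was sequenced from SW1783, an established human astrocytoma cell line, after 24 h with a hot water extract of Aconitum carmichaeli Debeaux (ACD), a medicinal plant. Cells received 20 (low dose), 100 (medium dose) or 500 µg/mL (high dose) of it, or vehicle. The extract stock was made in PBS with 2% DMSO, and PBS with 2% DMSO was the vehicle. The 2% describes these solutions, not the culture medium they were added to. ACD is the name in the titles and treatment labels, while the treatment protocol kept with the samples describes a different herb. Each of the 4 groups had 3 libraries of 1 cell line, and nothing states that they came from separate cultures, so the p-values measure the spread between these libraries, which may be technical. Total counts were 18863852 to 24200565 per library. Of the astrocyte markers examined, AQP4 was at 0 in every library and GFAP and S100B had mean normalised counts of 2.14 and 1.74, whereas VIM and CD44, which many cell types express, were abundant.

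Cells need histones in step with DNA, so these genes are transcribed mainly in S phase, from clusters gathered in a nuclear body organised by NPAT and CASP8AP2 (FLASH). Their mRNAs end in a short stem-loop instead of a poly(A) tail. The stem-loop is bound by SLBP, and the U7 snRNP, which contains LSM10 and LSM11, guides the cut behind it. Some members, among them H1-2, H2AC6, H2BC4, H2BC5, H2BC12 and H2BC21, are known also to give polyadenylated transcripts.

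A stem-loop of 16 bases was found within 100 bases after the stop codon in 69 of the 70 genes, the exception being H2BC12L. It began a median of 35 bases after the stop codon (range 22 to 67). There were 10 different stem-loops, and the most frequent was shared by 40 genes. The following are shown because they belong to members whose counts the results turn on and because they show how little this element varies between histone types. They are read 5′ to 3′ on the gene's strand of GRCh38, with the stem-loop in capitals and 5 flanking bases on each side.
H1-2, chr6:26055739-26055764, minus strand: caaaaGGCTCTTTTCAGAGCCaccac
H2AC6, chr6:26124664-26124689, plus strand: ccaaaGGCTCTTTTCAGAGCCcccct
H2BC21, chr1:149886183-149886208, minus strand: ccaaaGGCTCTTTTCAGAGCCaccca
H3C10, chr6:27810511-27810536, plus strand: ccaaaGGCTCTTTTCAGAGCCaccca
H2AC11, chr6:27133510-27133535, plus strand: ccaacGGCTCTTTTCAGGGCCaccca
H2BC12, chr6:27146361-27146386, minus strand: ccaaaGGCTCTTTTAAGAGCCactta
H4C14, chr1:149833027-149833052, plus strand: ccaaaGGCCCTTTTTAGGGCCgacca
H1-2, H2AC6, H2BC21 and H3C10, genes for 4 different histone types, carried the same 16 bases. The form in H2AC11 was found in no other member, and the forms in H2BC12 and H4C14 were found in 9 and 4 members.

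Most members gave few counts. Of the 66, 11 were at 0 in every library, 29 (these included) had at most 3 counts in any library, and 16 averaged at least 10 normalised counts (24.2%, against 65.6% of the 19586 protein-coding genes in the table). Together the members took 456 to 1160 counts per library. The 5 members with the highest counts, H2AC6, H1-2, H2BC21, H4C15 and H4C14, held 49.95% of them. Per kilobase of exon, the mean normalised count over the 12 libraries was highest for H1-2 (126), followed by H2AC11 (85.0), H2AC6 (80.7), H2BC12 (68.4) and H2BC5 (54.2). Exon length, here and below, took in every annotated transcript of a gene, as with 493 bases for H2AC11 and 1668 for H2AC6. A longer annotated exon length lowers the value at the same count. H1-2 was the only H1 gene with more than a few counts: H1-4 and H1-5, the next of its type, had at most 3 and 2 counts in any library. Whether poly(A) RNA was selected is not given in the sources used here, so the low counts do not show how much histone mRNA the cells held.

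The members with counts were often those with an annotated transcript that runs past the stem-loop. A transcript ending over 100 bases past it was annotated for 17 of the 66 genes, and 12 of these averaged at least 10 normalised counts, against 4 of the other 49 (H1-2, H2AC11, H2BC9 and H2BC12). Per kilobase of exon, the median level was 8.54 in the first group (range 0 to 80.7) and 1.44 in the second (range 0 to 126). The 17 genes carried 67.7% of the members' normalised counts. These are counts of genes by annotation, and no test was made of them.

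**Figure D1:**
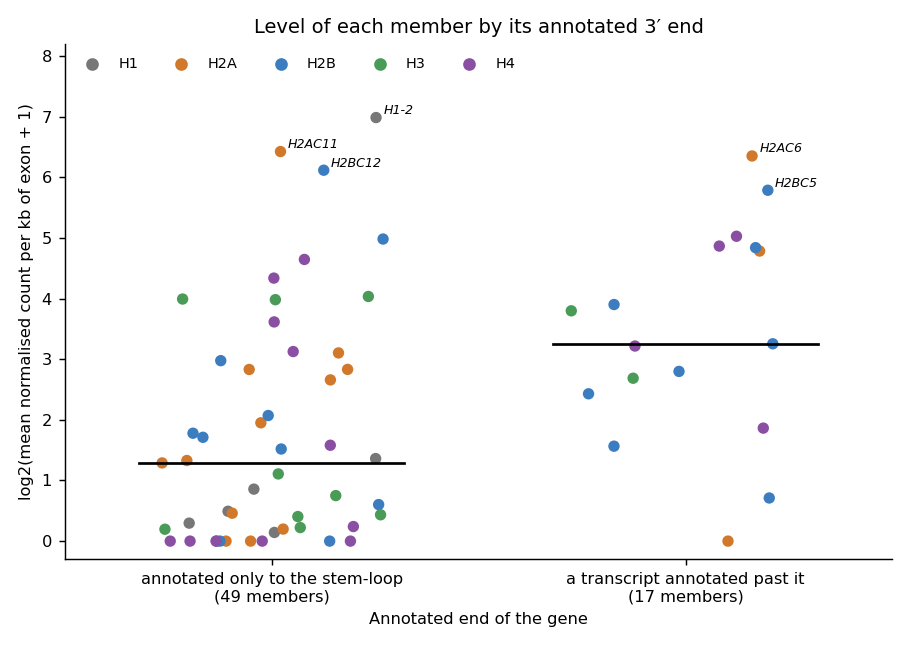
Mean normalised count per kilobase of exon over the 12 libraries, on a log2(value + 1) scale, for the 66 members, split by whether an annotated transcript ends over 100 bases past the stem-loop. Points are genes coloured by histone type and black lines are medians. Most of the 49 genes without such a transcript lie low, and H1-2, H2AC11 and H2BC12 stand above the rest of them. These 49 include H2BC12L, in which no stem-loop was found.

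Histone genes often lie in pairs that point away from each other and share the stretch between their starts. Within 1000 bases, 14 such pairs were found, with 170 to 979 bases between the starts. H2BC17 is counted in a pair with H2AC17 and in another with H3C12. In 6 pairs 1 partner had a mean of at least 10 normalised counts and the other did not, in 1 pair both did, and in 7 neither did. H2AC6 and H2BC4, whose starts are 219 bases apart, stood at 80.7 and 4.39 mean normalised counts per kilobase of exon. H2BC21 and H2AC20, 236 bases apart, stood at 27.6 and 6.12. For H2BC12 and H2AC12, 251 bases apart, the levels were 68.4 and 0.376.

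The promoters of the members held common motifs. A RefSeq promoter of GRCh38.p14, covering 250 bases before to 50 bases after the start, was matched by symbol for 64 of the 70 members, and motifs were searched on both strands, with overlaps between motifs allowed. The TATA box TATAAA was found in 43 (67.2%, against 11.5% of all 35116 promoters) and CCAAT, the site bound by NF-Y, in 54 (84.4%, against 34.6%). The octamer ATTTGCAT, which OCT1 binds, was found in 25 (39.1%, against 1.77%), and these were 14 of 18 H2B and 11 of 16 H2A promoters and no H1, H3 or H4 promoter. CCAAT was found in 3 of 13 H4 promoters and in every H1, H2A, H2B and H3 promoter. The windows of most head-to-head partners cover much of the same bases, so a single site can be counted for both genes. The shares are therefore of genes, not of separate sites. The letters TATAAA were found in 8 of the 16 members that averaged at least 10 normalised counts and in 32 of 44 that did not.

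Promoters of 3 members are printed because these genes were lower at the high dose and carry different sets of these motifs. They are read 5′ to 3′ on the gene's strand, with matches to the 3 motifs on either strand in capitals.
H2BC21, chr1:149886633-149886932, minus strand: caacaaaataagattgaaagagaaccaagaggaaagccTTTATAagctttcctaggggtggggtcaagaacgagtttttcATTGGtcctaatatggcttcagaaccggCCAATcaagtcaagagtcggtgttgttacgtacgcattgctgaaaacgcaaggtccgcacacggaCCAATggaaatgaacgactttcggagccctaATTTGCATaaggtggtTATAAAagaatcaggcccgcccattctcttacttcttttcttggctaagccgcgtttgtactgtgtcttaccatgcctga
H3C10, chr6:27809801-27810100, plus strand: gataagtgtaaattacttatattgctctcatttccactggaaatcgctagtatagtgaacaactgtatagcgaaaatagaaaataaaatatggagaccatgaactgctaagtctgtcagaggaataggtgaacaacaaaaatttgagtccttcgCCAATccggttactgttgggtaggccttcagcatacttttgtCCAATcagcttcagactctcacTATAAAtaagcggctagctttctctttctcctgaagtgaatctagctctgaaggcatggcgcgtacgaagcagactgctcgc
H4C14, chr1:149832407-149832706, plus strand: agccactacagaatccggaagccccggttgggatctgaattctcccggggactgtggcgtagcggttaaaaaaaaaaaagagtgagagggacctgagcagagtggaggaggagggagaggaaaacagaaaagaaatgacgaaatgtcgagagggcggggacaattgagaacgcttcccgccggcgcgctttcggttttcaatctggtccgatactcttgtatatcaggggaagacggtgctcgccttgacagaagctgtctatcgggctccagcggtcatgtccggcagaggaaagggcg
The H2BC21 promoter held all 3 motifs, the H3C10 promoter held TATAAA and CCAAT, and none of the 3 was found in the H4C14 window.

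Histone genes of every type were among those called lower at the high dose. DESeq2's Wald test on all genes gave an adjusted p for 31 of the 66 members, and 14 of them passed (adjusted p under 0.05 and a fold change over 1.5), all lower. Of all 19453 genes with an adjusted p, 9.57% were called lower and 8.66% higher. The other 17 tested members were not called. Of the 31, H2BC26 and H4C3 had positive log2 fold changes, and neither passed. H2BC26 was at 5.90 ± 3.20 normalised counts with vehicle and 13.3 ± 3.31 at the high dose (SD, n = 3; log2 fold change 1.19 ± 0.60 SE, DESeq2 adjusted p = 0.094). H4C3 was at 7.05 ± 1.78 and 8.61 ± 4.61 (0.25 ± 0.60, DESeq2 adjusted p = 0.78). The 14 were H1-2, H2AC6, H2AC11, H2BC4, H2BC5, H2BC12, H2BC21, H3C6, H3C8, H3C10, H3C14, H3C15, H4C8 and H4C14. Among them H3C14 and H3C15 have equal counts and are not separate results. The median log2 fold change of the 31 was -1.29, against -0.01 over all genes tested. In bulk RNA, fewer cells making a transcript and less of it in each cell cannot be told apart.

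Among the 16 members averaging at least 10 normalised counts, 11 were called lower, against 11.4% of the genes with that mean that were tested. All 16 had a fold change below 1, and for 13 of them the 3 high dose libraries all lay below the 3 vehicle libraries, which held for 34.4% of all genes with that mean. The 3 whose libraries overlapped were H2AC25, H2BC9 and H4C15.

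H2AC6, an H2A gene at chr6:26124145-26139116, had normalised counts of 196, 163 and 194 with vehicle, 167, 149 and 157 with 20 µg/mL, 126, 112 and 127 with 100 µg/mL and 71.8, 69.4 and 84.2 with 500 µg/mL. The high dose libraries lay below all others, and the medium dose libraries below all low dose and vehicle libraries. At the high dose it was 2.44-fold lower (log2 fold change -1.29 ± 0.17 SE, DESeq2 adjusted p = 4.9e-14). It also passed against vehicle at the medium dose (-0.59 ± 0.15, DESeq2 adjusted p = 0.00084), and from medium to high dose (-0.69 ± 0.17, DESeq2 adjusted p = 0.00022). The medium dose value sits at the fold limit, and without vehicle replicate 1 or 3 or medium replicate 2 its log2 fold change was -0.55, -0.56 or -0.54, inside that limit.

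H2BC21, an H2B gene at chr1:149884459-149886682, had 96.3, 84.1 and 85.3 normalised counts with vehicle and 64.4, 71.4 and 80.6 with 20 µg/mL. It had 49.8, 57.8 and 49.9 with 100 µg/mL and 30.1, 32.4 and 35.5 with 500 µg/mL. The 4 groups did not overlap, and each dose lay below the one before it. It was 2.70-fold lower at the high dose (log2 fold change -1.43 ± 0.24 SE, DESeq2 adjusted p = 9.5e-09). It also passed at the medium dose (-0.75 ± 0.22, DESeq2 adjusted p = 0.0039). From medium to high dose its log2 fold change was -0.68 ± 0.25 (DESeq2 adjusted p = 0.018).

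The other H2A and H2B genes that passed at the high dose were H2AC11, H2BC5, H2BC4 and H2BC12. H2AC11 had 58.4, 56.1 and 52.0 normalised counts with vehicle and 26.6, 14.4 and 25.3 at the high dose (log2 fold change -1.35 ± 0.29 SE, DESeq2 adjusted p = 1.9e-05). H2BC5 had 55.3, 57.8 and 70.8 with vehicle and 25.5, 27.9 and 15.9 at the high dose (-1.41 ± 0.31, DESeq2 adjusted p = 2.7e-05). Neither gene's libraries overlapped between these groups. H2BC4 had 14.3, 28.9 and 9.37 with vehicle, where replicate 2 was the highest, and 4.63, 3.60 and 8.42 at the high dose (-1.67 ± 0.59, DESeq2 adjusted p = 0.011). Without vehicle replicate 2, or without high replicate 2, the call for H2BC4 was lost. On the opposite strand 30.9% of its exon bases overlap HFE or an unnamed gene, and whether the authors counted by strand is not given. H2BC12 fell by 0.81 on the log2 scale (± 0.34 SE, DESeq2 adjusted p = 0.037), from 37.2 ± 3.85 to 20.97 ± 4.97 normalised counts (SD, n = 3), and its call was lost in 8 of 19 alternatives. H2AC25, by count the second of the H2A genes, had 42.0, 52.6 and 65.6 normalised counts with vehicle and 39.4, 47.7 and 59.9 at the high dose, which overlap (-0.12 ± 0.26, DESeq2 adjusted p = 0.77).

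The linker histone gene H1-2 had 129, 108 and 111 normalised counts with vehicle, 82.3, 79.2 and 81.0 with 100 µg/mL and 92.6, 74.8 and 61.7 with 500 µg/mL. All high dose libraries lay below the vehicle libraries, and the medium and high dose libraries overlapped. It was called at the high dose (log2 fold change -0.61 ± 0.20 SE, DESeq2 adjusted p = 0.0062), just past the fold limit, and the call was lost without vehicle replicate 1 or high replicate 3. At the medium dose its log2 fold change was -0.52 ± 0.20 (DESeq2 adjusted p = 0.034), which is inside the fold limit.

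Among the H3 genes, all 5 that were tested were called lower at the high dose. H3C10 had 17.4, 25.4 and 28.1 normalised counts with vehicle and 5.79, 4.50 and 9.35 at the high dose (log2 fold change -1.85 ± 0.51 SE, DESeq2 adjusted p = 0.00094). H3C6 had 21.5, 21.9 and 24.98 with vehicle, 11.6, 9.32 and 9.42 with 100 µg/mL and 6.95, 7.21 and 9.35 with 500 µg/mL (-1.53 ± 0.48 at the high dose, DESeq2 adjusted p = 0.0035). In both genes every high dose library lay below every vehicle library. H3C14 and H3C15 have the same coding sequence and were given equal counts, so they carry 1 measurement, not 2. Their sum was 9.22, 31.5 and 24.98 normalised counts with vehicle and 2.32, 4.50 and 2.81 at the high dose (-2.76 ± 0.64, DESeq2 adjusted p = 6.0e-05). H3C8 was at 12.3 ± 0.121 with vehicle and 3.01 ± 1.05 at the high dose (SD, n = 3; -2.05 ± 0.71, DESeq2 adjusted p = 0.0094).

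H4C14 and H4C15 also have the same coding sequence, and their separate values were unstable: in vehicle replicate 1 they stood at 115 and 34.8 normalised counts and in replicate 3 at 58.3 and 112. Taken alone, H4C14 was called at the high dose (log2 fold change -1.48 ± 0.37 SE, DESeq2 adjusted p = 0.00023). It was also called at the medium dose (-1.03 ± 0.36, DESeq2 adjusted p = 0.020), whereas H4C15 passed at neither (-0.81 ± 0.38 at the high dose, DESeq2 adjusted p = 0.067). Their sum was steadier, at 149.6, 154 and 171 normalised counts with vehicle, 126, 149.9 and 126 with 20 µg/mL, 71.9, 95.1 and 88.6 with 100 µg/mL and 67.1, 83.8 and 65.5 with 500 µg/mL. The medium and high dose sums overlapped and lay below all low dose and vehicle sums. The summed pair was lower at the high dose (-1.13 ± 0.18, DESeq2 adjusted p = 2.3e-09). It was also lower with 100 µg/mL (-0.88 ± 0.18, DESeq2 adjusted p = 6.3e-06). H4C8 was lower at the high dose, from 22.7 ± 5.90 to 9.33 ± 3.25 (SD, n = 3; -1.29 ± 0.47, DESeq2 adjusted p = 0.015), and its call was lost without vehicle replicate 3 or high replicate 3.

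**Figure D2:**
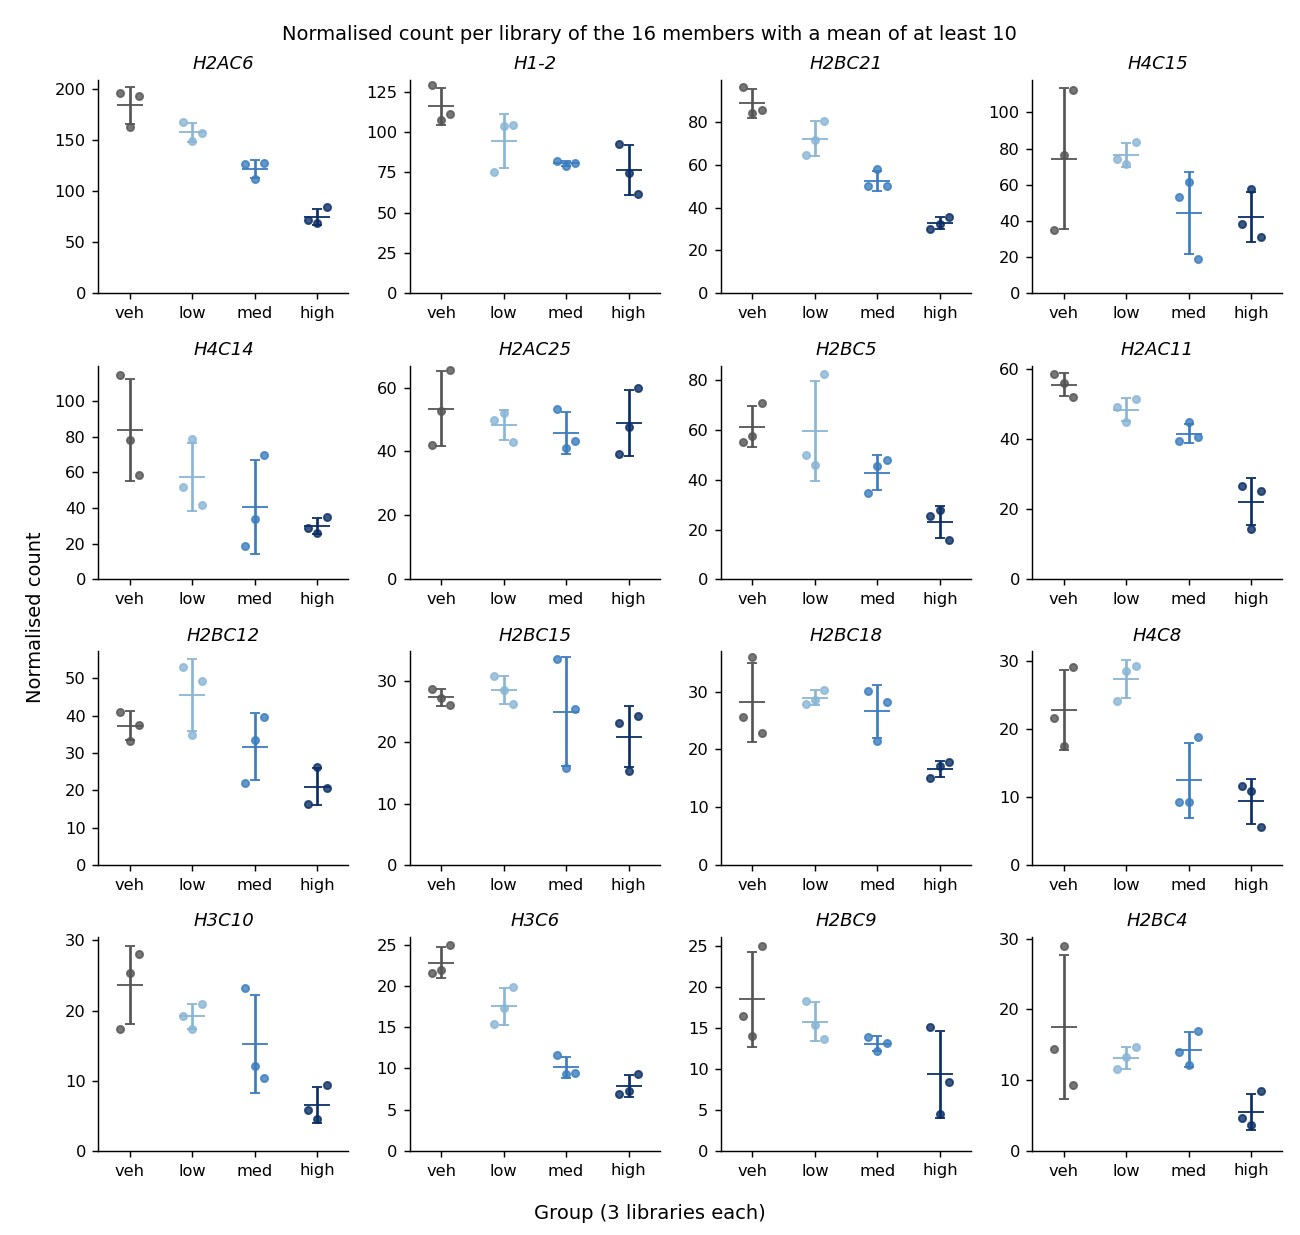
Normalised count (y axis, from 0) in each of the 3 libraries of each group (veh, vehicle; med, medium) for the 16 members with a mean of at least 10. Points are libraries, horizontal bars means and vertical bars SD. H2AC6, H2BC21, H2AC11 and H3C6 step down with dose, in H2AC25 the vehicle and high dose libraries overlap, and H4C14 and H4C15 scatter in opposite directions within a group.

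At the medium dose 11 members had an adjusted p and 3 were called, all lower (H2AC6, H2BC21 and H4C14), where 1.48% of 14082 genes tested were called lower and 2.34% higher. From medium to high dose 6 of 24 tested members were called, all lower (H2AC6, H2AC11, H2BC5, H2BC21, H3C14 and H3C15), against 5.61% of all genes. H3C14 and H3C15 have equal counts and are not separate results. This count fell to 2 without high replicate 2 or medium replicate 2, to 3 without high replicate 1, and to 3 with only those groups in the fit, and edgeR called 9 of 23. The group means of 9 of the 16 members with a mean of at least 10 were lower at every step from vehicle through the low and medium to the high dose, which held for 19.2% of all genes with that mean.

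At the low dose no member had an adjusted p in DESeq2, which gives none to genes of low mean. No member had an unadjusted p under 0.05, and none was called when the low genes were kept in, while edgeR called 0 of 23 and gave an unadjusted p under 0.05 to 3. Of all genes tested, 0.0215% were called lower and 0.0967% higher at this dose. Of the 16 members with a mean of at least 10, 11 had lower and 5 higher fold changes, with a median of -0.21 on the log2 scale. Among the 4 groups, the likelihood ratio test of DESeq2 passed 13 of 31 members, near the 45.8% of all genes that passed it.

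**Figure D3:**
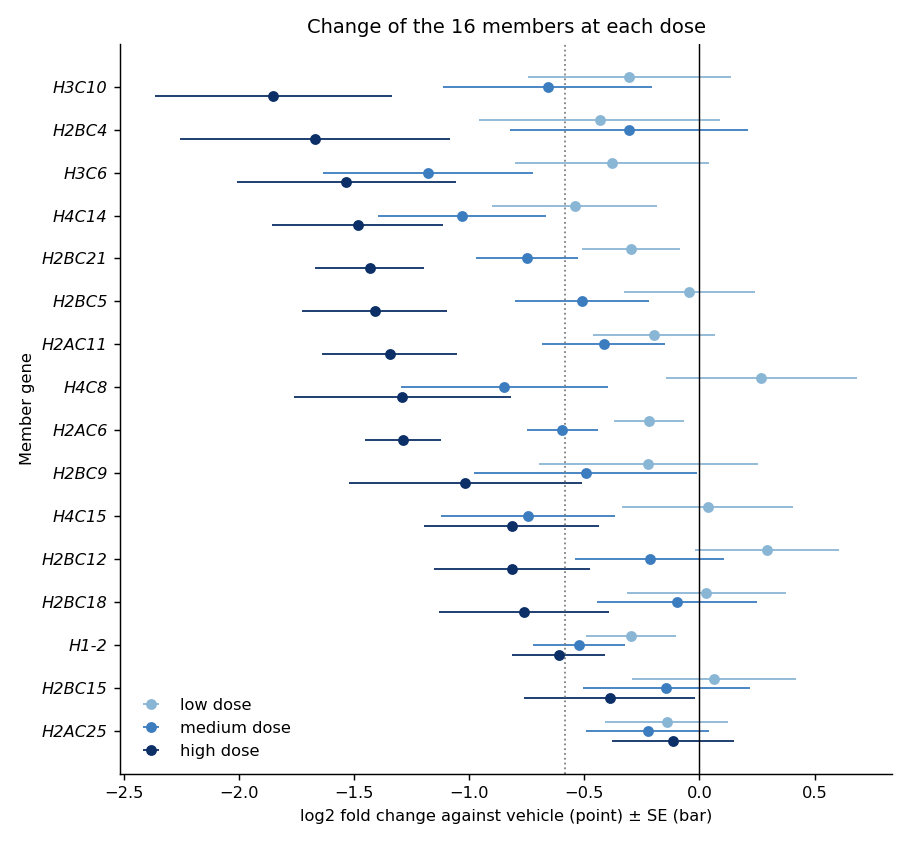
log2 fold change against vehicle (x axis) of the 16 members with a mean of at least 10, at the low, medium and high dose, with SE bars. The dotted line marks a fold change of 1.5 downwards. Low dose points lie on both sides of 0, 11 below and 5 above it. High dose points lie furthest left in 15 of the 16 genes, H2AC25 being the exception.

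Summed over all 66 members, the share of the library was lower at each higher dose. In CPM (counts scaled to a common library total) it was 49.8, 50.4 and 53.0 with vehicle, 43.5, 44.1 and 46.9 with 20 µg/mL, 33.4, 31.4 and 34.2 with 100 µg/mL and 24.1, 23.6 and 23.5 with 500 µg/mL. The 4 groups did not overlap, and the means were 87.8%, 64.6% and 46.4% of the vehicle mean. MT-RNR1 and MT-RNR2, the mitochondrial ribosomal RNAs, took 0.932% ± 0.0251 of all counts with vehicle, 3.14% ± 0.164 with 20 µg/mL, 7.83% ± 0.199 with 100 µg/mL and 5.93% ± 0.150 with 500 µg/mL (SD, n = 3), which enlarges the total these shares are taken of. Set against nuclear protein-coding counts alone, the log2 ratio to vehicle was -1.04 in place of -1.11 at the high dose and -0.54 in place of -0.63 at the medium dose.

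The estimates for the types differed in size. When the members of a type were added before the fit, H3 was 3.59-fold lower at the high dose (log2 fold change -1.85 ± 0.29 SE, DESeq2 adjusted p = 6.4e-10). H2A, H2B and H4 were 1.99-fold, 1.98-fold and 2.01-fold lower, and H1 was 1.54-fold lower (DESeq2 adjusted p = 8.8e-15, 7.5e-15, 2.5e-11 and 0.0051). The difference between types was not tested. The H1 sum had a mean of 94.4 normalised counts, and H1-2 alone had 92.0. The H3 sum rested on 18 to 106 counts per library. From medium to high dose H2B (-0.60 ± 0.13, DESeq2 adjusted p = 1.1e-05) and H3 (-1.07 ± 0.30, DESeq2 adjusted p = 0.0011) were called. H2A (-0.52 ± 0.13, DESeq2 adjusted p = 0.00019) was inside the fold limit, H1 stood at -0.11 ± 0.20 and H4 at -0.29 ± 0.15.

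**Figure D4:**
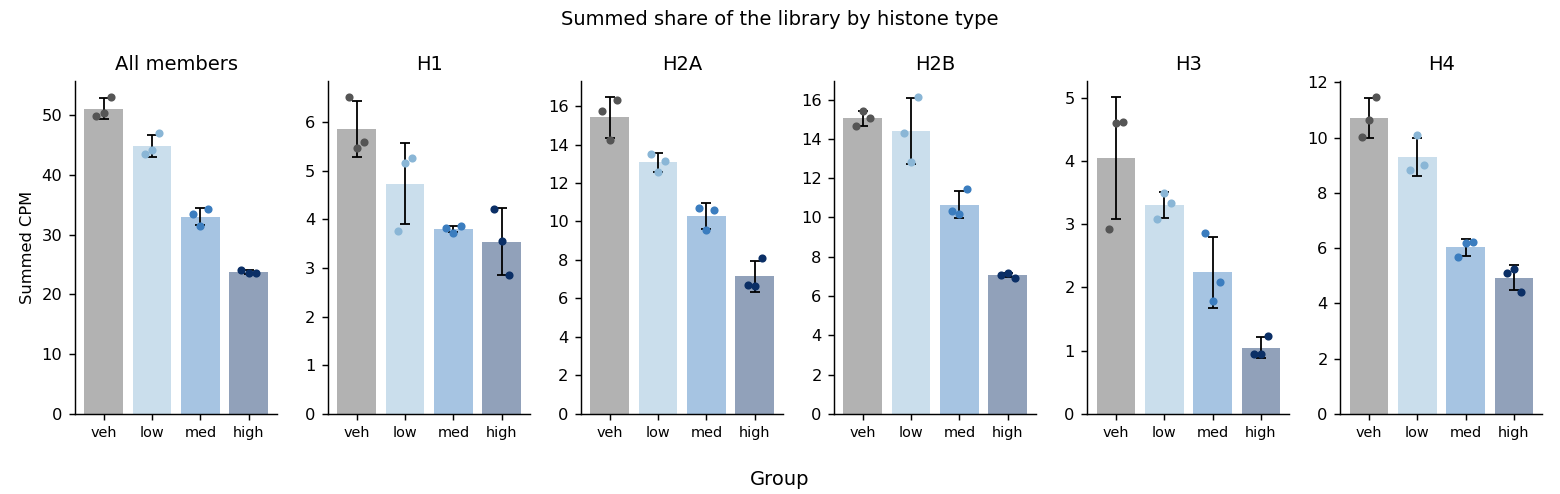
Summed CPM (y axis, from 0) of all 66 members and of each histone type. Bars are group means, vertical lines SD and points the 3 libraries per group. The sum of all members was 51.1 with vehicle and 23.7 at the high dose, and H3 was at 25.8% of its vehicle mean.

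Members of either annotated 3′ end were lower at the high dose as sums. The 17 genes with a transcript annotated past the stem-loop summed to 682, 703 and 755 normalised counts with vehicle and 332, 350 and 360 at the high dose. The other 49 summed to 328, 314 and 323 with vehicle and 196, 164 and 157 at the high dose. Neither sum overlapped between the groups. At the high dose 8 of 15 tested genes of the first group and 6 of 16 of the second were called lower, against 9.57% of all genes. The 6 were H1-2, H2AC11, H2BC12, H3C8, H3C14 and H3C15. H3C14 and H3C15 have equal counts and are not separate results. H1-2 and H2BC12 are known also to give polyadenylated transcripts, so the second group is not limited to genes without them.

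The genes around histone supply were examined from lists. Of 24 S phase genes, which serve DNA copying and the supply of its building blocks, 14 were called lower at the high dose and 0 higher, with a median log2 fold change of -0.68, where 9.57% of all genes were lower. Among them RRM2, a subunit of ribonucleotide reductase, fell from 4468 ± 144 to 1793 ± 38.6 normalised counts (SD, n = 3; log2 fold change -1.32 ± 0.04 SE, DESeq2 adjusted p = 2.7e-257). UHRF1, which helps to copy DNA methylation, fell by 1.82, the cyclin gene CCNE2 by 1.65 and MCM3, a subunit of the replicative helicase, by 1.22 on the log2 scale. The summed normalised counts of the list at the high dose were 61.1% of those with vehicle.

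Of 29 genes for histone gene transcription and histone RNA processing, 3 were called lower (CCNE2, which is also in the S phase list, CCNE1 and CDK2) and 1 higher, with a median of -0.155. Of all genes, 9.57% were called lower, which is near the share of this list, and 8.66% higher. Cyclin E and CDK2 phosphorylate NPAT. The higher gene was HINFP, an activator of H4 genes, from 219 ± 7.05 to 376 ± 18.4 (SD, n = 3; log2 fold change 0.78 ± 0.11 SE, DESeq2 adjusted p = 6.4e-12). NPAT had a log2 fold change of -0.20 ± 0.07 (DESeq2 adjusted p = 0.016) and CASP8AP2 of -0.52 ± 0.07 (DESeq2 adjusted p = 4.9e-12). For SLBP it was 0.04 ± 0.07 (DESeq2 adjusted p = 0.65). All were inside the fold limit.

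Of 27 histone chaperone and deposition genes (MCM2 among them is also in the S phase list), 4 were called lower and 1 higher, with a median of -0.24, where 9.57% of all genes were lower and 8.66% higher. ASF1B, which hands H3 and H4 on during replication, had a log2 fold change of -1.07 ± 0.07 SE, HJURP, the chaperone of CENPA, -0.82 ± 0.07 and NASP, which holds the soluble H3 and H4 pool, -0.62 ± 0.04. UBN2, of the HIRA complex that deposits H3.3 outside replication, was higher (0.83 ± 0.06, DESeq2 adjusted p = 7.4e-49).

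Of 16 histone genes listed here as replication-independent, 11 were tested. Whether each of them is made evenly through the cell cycle was not examined. H1-10, a linker histone, was higher, from 476 ± 92.5 to 1036 ± 99.5 normalised counts (SD, n = 3; log2 fold change 1.12 ± 0.11 SE, DESeq2 adjusted p = 4.3e-23). H2AX, which marks DNA breaks once phosphorylated, fell by 0.98 and H2AJ fell by 0.61 on the log2 scale, the call for H2AJ being lost without vehicle replicate 2 or 3. Other results of this list are not given.

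**Figure D5:**
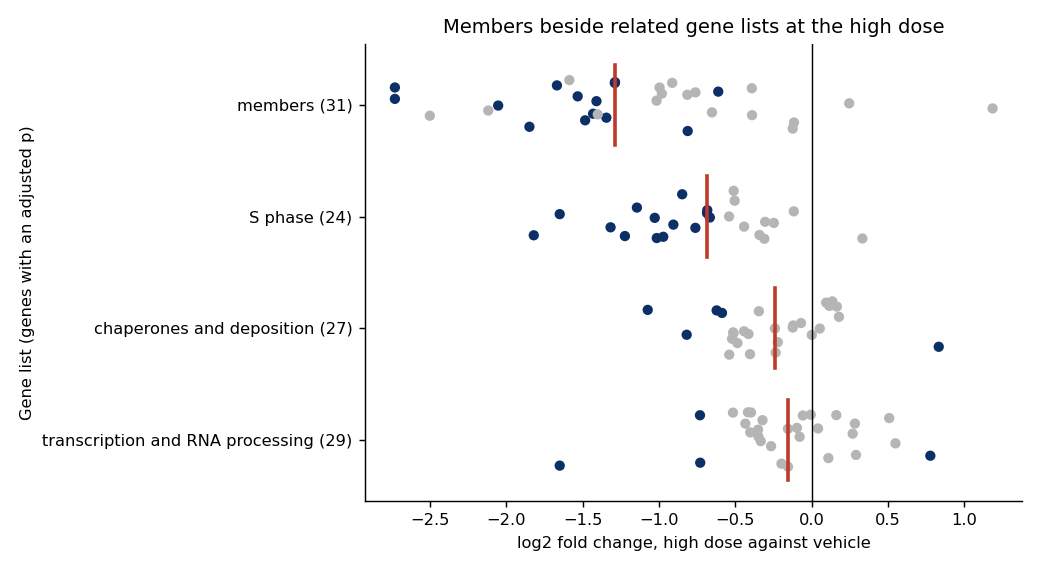
log2 fold change at the high dose against vehicle (x axis) of the members and of 3 related gene lists, with the number of genes that had an adjusted p in brackets. Each point is a gene, dark where it was called (adjusted p under 0.05 and fold change over 1.5), and red lines are medians. The members and the S phase genes lie mostly left of 0, and the other lists lie on both sides of it.

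RNAs that lack a poly(A) tail or carry a short one were set beside the members. Of 14 such RNAs, 8 were tested at the high dose, with a median log2 fold change of -0.77. Of these 8, 1 was called lower and 3 higher, where 9.57% of all genes were called lower and 8.66% higher. RN7SL1, the RNA of the signal recognition particle, was called lower (113 ± 54.6 to 51.7 ± 26.5 normalised counts, SD, n = 3; log2 fold change -1.14 ± 0.35 SE, DESeq2 adjusted p = 0.0037). Its call was lost without vehicle replicate 2 (log2 fold change -0.70, DESeq2 adjusted p = 0.12) and with the 2 groups alone in the fit (DESeq2 adjusted p = 0.13). MALAT1 (0.81 ± 0.06), MT-RNR1 (4.30 ± 0.05) and MT-RNR2 (2.55 ± 0.05) were higher. Their part in the histone result was not tested. Markers of other cell types moved as well. The neuron list (2 of 4 called lower) summed to 3442 to 3629 normalised counts with vehicle and 1737 to 1752 at the high dose, and the epithelium list (2 of 4 called lower) to 4861 to 5073 and 1797 to 1888, mostly from KRT18, with the defining EPCAM and CDH1 near 0. The blood and microglia list (2 of 4 called lower) summed to 3149 to 3316 and 3944 to 4229, with AIF1 near 0. The rise of this sum came from 1 gene that was higher inside the fold limit (DESeq2 adjusted p under 0.05). The astrocyte and astrocytoma list (2 of 10 called lower, SLC1A3 and NES) summed to 144288 to 152085 and 152314 to 154036, and the endothelium list (0 of 2 called) to 13.3 to 16.6 and 6.31 to 15.05. Their part in the histone result was not tested.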

How the data were processed

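The authors sequenced strand-specific mRNA libraries as paired ends, trimmed the reads (Trim Galore), aligned them to GRCh38 (STAR) and estimated counts with RSEM (1.3.3 in the submitters' processing notes). The deposited values are RSEM expected counts per gene, which share a read among the genes it fits, so near-identical histone genes divide their reads. Of members' values 15.3% were not whole, against 8.75% of all values. Poly(A) selection and counting by strand are not given in the sources used here.

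Here the values were rounded and the 12 libraries fitted together, with group as the only factor, in DESeq2 1.42.0 (R 4.3.3, Wald test, two-sided, Benjamini-Hochberg adjustment over all genes, alpha 0.05). A gene was called at an adjusted p under 0.05 and a fold change over 1.5. Adjusted p-values quoted are from DESeq2. Independent filtering left genes with means under 1.72 at the high, 18.3 at the medium and 263 at the low dose without one. Alternatives included edgeR 4.0.16, TMM factors and leaving out each library. The scripts were tested on simulated data. A normalised count is a count over its library's DESeq2 size factor. Gene models were from GENCODE v44, and 56558 IDs (93.2%) matched. Replicates differed by more than counting noise (chi-square 1.99 to 3.55 per degree of freedom).

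Named were the 3 members of each type with the highest counts, the 6 largest called rises and falls at the high dose with a mean of at least 10, every member called at a lower dose, H1-2, H2AC6, H2BC4, H2BC5, H2BC12 and H2BC21, and of each list up to 4 called genes with a mean of at least 50, with NPAT, SLBP and CASP8AP2. Other members are named where a small count or a motif, pair or stem-loop called for it, after values were seen. The members and lists were chosen with earlier results of these data known. There were 0 columns of no sample. Some genes that met the naming rule are not reported here.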

Additional observations from a re-analysis of the deposited data

How the results depend on the processing

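The count of members called at the high dose (14) was 13 to 18 over edgeR (18), TMM factors, other filters, the replicate block (13), a fit of the 2 groups and summed identical copies (13, chosen after seeing the data), and 11 to 15 when each library was left out. It was 5 of 5 with the members of a type summed. At the medium dose (3 called) edgeR called 5, and leaving out libraries gave 1 to 3, with 1 without medium replicate 2. From medium to high dose (6 called) edgeR called 9, filterByExpr gave 8, a fit of those 2 groups gave 3, summed types 2 of 5, and leaving out libraries 2 to 6. Among the 4 groups (13 called) edgeR called 16, filterByExpr gave 14, summed types gave 5 of 5, and leaving out libraries 8 to 12, with 8 without high replicate 3. At the low dose every alternative gave 0. The log2 ratio of summed shares moved from -1.11 to -1.04 at the high dose and from -0.63 to -0.54 at the medium dose over nuclear protein-coding counts, and lay between -1.12 and -1.08, -0.66 and -0.60, and -0.22 and -0.16 (low dose) when libraries were left out. In the lists, leaving out libraries gave 4 to 4 called genes for transcription and processing, 4 to 5 for chaperones, 3 to 5 for replication-independent histones, 14 to 14 for S phase genes and 3 to 5 for RNAs without a tail. No named gene called in the main fit changed direction. Replicate numbers gave no clear pairing of the libraries, though a weak one is not excluded. In their deviations from group means, same-numbered libraries correlated at -0.04 to 0.10 and other-numbered ones at -0.099 to 0.097. Of the libraries, 7 of 12 correlated best with their own number. With the replicate block the count was 3 at the medium dose, 6 from medium to high dose, 10 among the 4 groups and 0 at the low dose. Depth limits the 50 members with means under 10.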
